A study of Canis lupus familiaris with 15 samples.

Results

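STEAP1 and TMEFF2 are genes for proteins of the cell surface that are known as antigens of prostate cancer, and both had among the highest ratios of the canine carcinoma line P114 over other lines. They were taken by gene symbol: of 22176 probes on a cDNA array, 7694 carried a symbol, for 5246 genes, and 1 probe belonged to STEAP1 (probe 12875) and 1 to TMEFF2 (probe 437). The 3 cell lines of the study came from dog mammary tumours, each from a different type. P114 was derived from an anaplastic carcinoma, CMT-U229 from a benign mixed tumour and CMT-U335 from an osteosarcoma arising in the mammary gland, so each tumour type is represented by 1 line. All were untreated and harvested near confluence. RNA of P114 with CMT-U335, of P114 with CMT-U229 and of CMT-U229 with CMT-U335 was hybridised together on 5 arrays per pair, 15 in all, with the dyes Cy5 and Cy3 exchanged on 2 or 3 arrays of each pair.

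STEAP1 belongs to a family of membrane proteins that pass electrons to iron and copper ions. The related proteins STEAP2, STEAP3 and STEAP4 carry an NADPH-binding domain for this purpose, STEAP1 itself lacks that domain, and human STEAP1 can assemble with STEAP2. Human STEAP1 is abundant in prostate tumours and is a target of antibodies against them. TMEFF2, also called tomoregulin, spans the membrane once and holds follistatin-like domains and an EGF-like domain outside the cell. In human cells ADAM proteases can release this outer part. Human TMEFF2 is mostly found in brain and prostate, and its closest relative is TMEFF1.

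The deposited values are log ratios of the 2 dyes, normalized by the authors, and every value below is such a ratio, turned so that the line named first is the numerator. The log base was read as 2. The direction is likely and not settled, because the deposited numerator was taken to be Cy5, the first channel in the labels. If it were Cy3, each sign below would turn. A ratio on an array gives no level in either line, and distance from background is unknown here. In RNA from a whole culture, fewer cells with a transcript and less of it per cell cannot be told apart. Arrays of a pair are labelled as biological replicates, while the series design mentions dye swaps with at least 1 biological replicate, so some arrays may repeat the same RNA and errors measure the spread between arrays. STEAP1 and TMEFF2 were chosen by their high ratios in the pairs with P114, so their own ratios are described without a test.

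STEAP1 stood high in P114 against CMT-U335. Its log2 ratios on the 5 arrays, replicates 1 to 5, were 2.57, 3.46, 2.44, 2.78 and 3.13. All 5 lay well above 0 and within 1.02 of each other, with replicate 2 the highest and replicate 3 the lowest. The mean of 2.88 ± 0.42 (SD, n = 5) is a 7.34-fold ratio and the 8th largest of 5246 genes. IGFBP7, which encodes a secreted binding protein of insulin-like growth factors, came next below it at 2.59 ± 0.15 (SE, n = 5).

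STEAP1 stood higher still against CMT-U229. The 5 ratios of P114 over CMT-U229 were 3.87, 4.09, 3.47, 3.99 and 3.87, and replicate 3 was the lowest. Their mean, 3.86 ± 0.24 (SD, n = 5), is a 14.5-fold ratio and the largest of all genes in this pair. The lowest of these 5 values, 3.47, lies just above the highest in P114 over CMT-U335, 3.46, so the ratios of the 2 pairs did not overlap.

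Between the lines without the carcinoma label, STEAP1 was lower in CMT-U229 than in CMT-U335. The ratios of CMT-U229 over CMT-U335 were -0.64, -0.94, -1.33, -1.51 and -1.01, all below 0. The mean was -1.09 ± 0.34 (SD, n = 5), a 2.13-fold lower ratio and the 71st lowest of all genes. By these ratios STEAP1 was highest in P114, lower in CMT-U335 and lowest in CMT-U229, with each step larger than the SD over arrays. The 2 routes round the loop gave like values: the difference of the P114 pairs puts CMT-U229 over CMT-U335 at -0.98, and the direct value minus this was -0.11 ± 0.25 (SE, limma fit over 15 arrays).

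TMEFF2 was about as high as STEAP1 in P114 over CMT-U335, lower than STEAP1 in P114 over CMT-U229, and did not separate the other lines beyond the spread between arrays. In P114 over CMT-U335 its log2 ratios were 3.00, 2.87, 2.49, 3.09 and 3.11, with replicate 3 the lowest. The mean was 2.91 ± 0.25 (SD, n = 5), a 7.53-fold ratio and the 7th largest, next below FABP3, a fatty acid carrier, at 2.94 ± 0.42 (SE).

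Against CMT-U229 the ratios of TMEFF2 in P114 were 2.72, 2.61, 2.78, 3.82 and 3.50. Replicates 4 and 5 stood above the other 3, which lay close together. The mean of 3.09 ± 0.54 (SD, n = 5), 8.50-fold, ranked below STEAP1 alone, and ACSL5, an enzyme that activates fatty acids, followed at 2.49 ± 0.22 (SE). The ratios of the 2 pairs with P114 overlapped for TMEFF2.

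The TMEFF2 ratios of CMT-U229 over CMT-U335 were 0.034, 0.15, 0.15, 0.37 and -0.60. Replicates 1 to 4 sat above 0 and replicate 5 lay below. The mean was 0.019 ± 0.37 (SD, n = 5), and a fit in which the loop had to close gave -0.045 ± 0.13 (SE). The 2 lines therefore do not differ in TMEFF2 beyond the spread between arrays. The indirect route gave -0.17, and the direct value minus it was 0.19 ± 0.29 (SE).

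**Figure D1:**
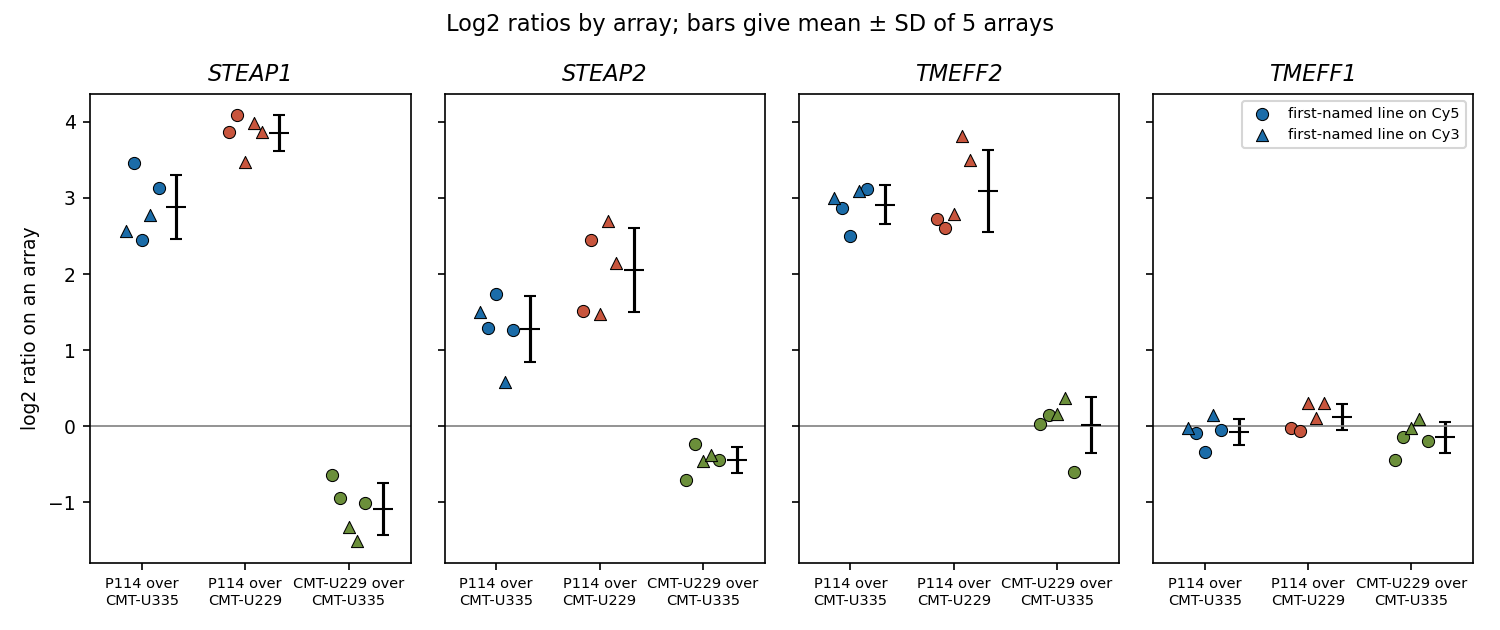
Log2 ratios of STEAP1, STEAP2, TMEFF2 and TMEFF1 (y axis) on each array of the 3 pairs (x axis); circles are arrays with the first-named line on Cy5, triangles those with it on Cy3, and black bars give mean ± SD of 5 arrays. STEAP1 and TMEFF2 lie between 2.44 and 4.09 on all arrays with P114, STEAP1 is below 0 on all 5 arrays of CMT-U229 over CMT-U335, and TMEFF1 stays near 0 throughout.

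The 2 genes differed from each other by pair. In P114 over CMT-U335 the STEAP1 ratio minus the TMEFF2 ratio averaged -0.036 ± 0.40 (SD, n = 5) and was above 0 on 2 of 5 arrays. For P114 over CMT-U229 it averaged 0.77 ± 0.54 and was above 0 on 5 of 5 arrays. For CMT-U229 over CMT-U335 it averaged -1.11 ± 0.59 and was above 0 on 0 of 5 arrays. The genes thus shared the high ratios in P114, and what separated them was the low STEAP1 ratio of CMT-U229.

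The dye order was examined because each gene was read by 1 probe. In a limma fit of the 3 pair means plus 1 dye shift over 15 arrays, STEAP1 had a shift of 0.18 ± 0.071 (SE) towards Cy5, with adjusted p = 0.116 (Benjamini-Hochberg, two-sided). TMEFF2 had a shift of -0.22 ± 0.083, towards Cy3, with adjusted p = 0.104. Neither passed 0.05, which 11.7% of all genes did. The shifts ran opposite ways and were small beside the ratios with P114: with P114 on Cy5 and on Cy3, STEAP1 averaged 3.01 and 2.67 against CMT-U335 and 3.98 and 3.78 against CMT-U229. TMEFF2 averaged 2.82 and 3.04 against CMT-U335 and 2.67 and 3.37 against CMT-U229 in the same order of dyes. In CMT-U229 over CMT-U335 the gap between dye orders was larger beside the ratios. With CMT-U229 on Cy5 and on Cy3, STEAP1 averaged -0.87 and -1.42 there, below 0 in both orders. TMEFF2 averaged -0.14 and 0.26, so the sign of its mean turned with the dye order in that pair.

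Among all genes, 8 of 5245 measured on every array had a mean log2 ratio of at least 2 in P114 over both other lines. Beside STEAP1 and TMEFF2 they were ACSL5, the squalene synthase gene FDFT1, the simple-epithelial keratin KRT18, the molybdopterin synthase gene MOCS2, the respiratory complex I gene NDUFV2, and SPP1, which encodes osteopontin. SPP1 and KRT18 were also higher in CMT-U229 than in CMT-U335, by mean log2 ratios of 2.58 and 0.79. The SPP1 ratio of P114 over CMT-U229 (2.03 ± 0.55, SE) missed the threshold (limma adjusted p = 0.0795). STEAP1 had the lowest CMT-U229 over CMT-U335 ratio of the 8, and the other 5 lay between -0.11 and 0.22. The 8 genes lie on 8 different chromosomes in the RefSeq gene table of the dog assembly UU_Cfam_GSD_1.0, STEAP1 on chromosome 14 and TMEFF2 on chromosome 37.

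**Figure D2:**
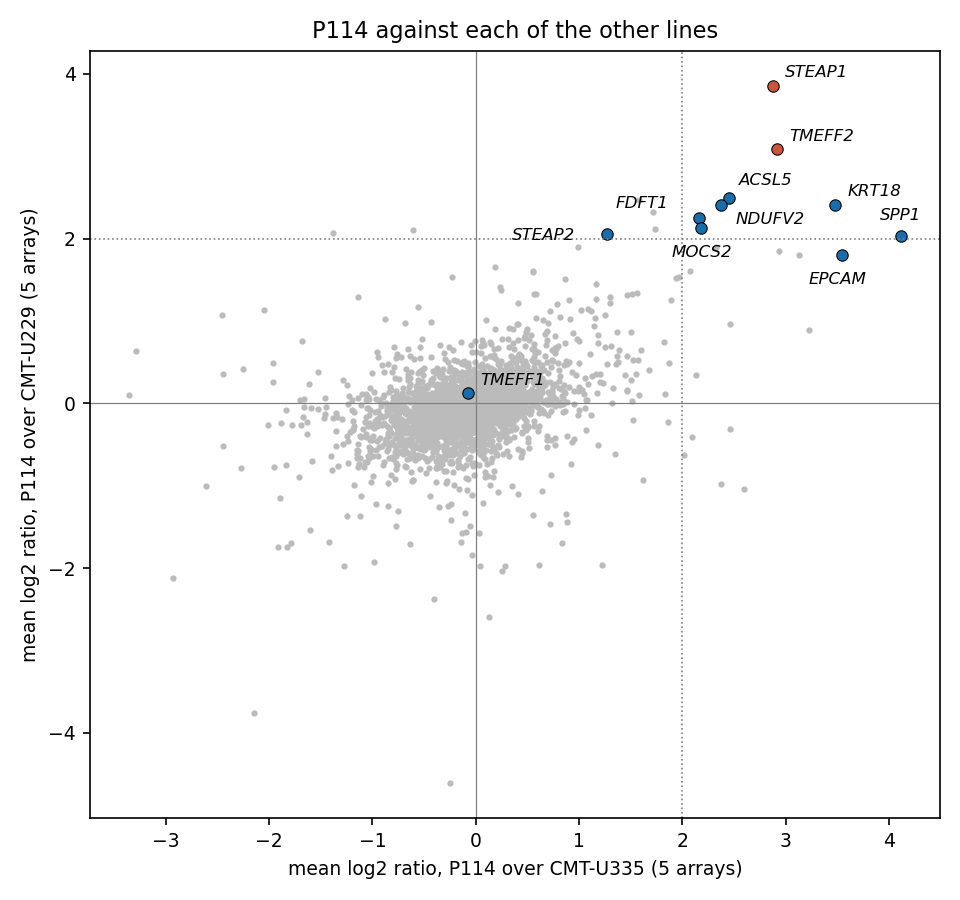
Mean log2 ratio of P114 over CMT-U335 (x axis) against that of P114 over CMT-U229 (y axis) for genes with a symbol, 5 arrays each; red points are STEAP1 and TMEFF2, blue points other named genes, and dotted lines mark a log2 ratio of 2. STEAP1 at 2.88 and 3.86 and TMEFF2 at 2.91 and 3.09 are the uppermost points, while TMEFF1 lies near the origin.

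The relatives of the 2 genes behaved differently from each other. STEAP2, a metal reductase that neighbours STEAP1 directly in the gene table, was read by 1 probe. In P114 over CMT-U335 its ratios were 1.50, 1.30, 1.74, 0.58 and 1.26, with replicate 4 the lowest. STEAP2 rose by 1.28 ± 0.16 (SE, n = 5, limma adjusted p = 0.00139), 2.42-fold, where 7.89% of all genes were called higher.

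The STEAP2 ratios of P114 over CMT-U229 were 1.51, 2.45, 1.47, 2.70 and 2.14, all above 1. STEAP2 rose by 2.06 ± 0.20 (limma adjusted p = 0.00131), 4.16-fold, the 13th largest ratio, where 3.32% of genes were called higher. With arrays that look like dye swaps of the same RNA averaged, this call was just missed (adjusted p = 0.0524). Between CMT-U229 and CMT-U335, STEAP2 had ratios of -0.71, -0.24, -0.46, -0.37 and -0.44. It fell by 0.45 ± 0.084 on the log2 scale (limma adjusted p = 0.0114, where 8.58% of genes were called lower), but missed the threshold in a fit over all 15 arrays (adjusted p = 0.0865) and with the swaps averaged (adjusted p = 0.0665). STEAP2 had the same sign as STEAP1 in each of the 3 pairs, with a smaller ratio. STEAP1 minus STEAP2 was above 0 on all 10 arrays with P114, by 1.60 ± 0.68 (SD, n = 5) against CMT-U335 and 1.80 ± 0.40 against CMT-U229. A cDNA probe can take up transcripts of a similar sequence, and how far either probe reads the other gene was not tested.

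TMEFF1, the relative of TMEFF2, stayed near 0. Averaged over its 2 probes, its ratios ran from -0.34 to 0.14 in P114 over CMT-U335, from -0.065 to 0.30 for P114 over CMT-U229 and, for CMT-U229 over CMT-U335, from -0.45 to 0.092. The means were -0.073 ± 0.087, 0.12 ± 0.088 and -0.15 ± 0.091 (SE, n = 5), and none passed the test (limma adjusted p = 0.620, 0.572 and 0.368 in turn). TMEFF2 minus TMEFF1 was above 0 on all 10 arrays with P114, with means of 2.99 ± 0.12 (SD, n = 5) against CMT-U335 and 2.96 ± 0.50 against CMT-U229.

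The neighbours of STEAP1 on chromosome 14 were called in both directions in P114 over CMT-U335, and only in the direction of STEAP1 in the other pairs. STEAP1 and STEAP2 are adjacent in the gene table. The other measured neighbours are farther off, from place -24 (ABCB4) to place 53 (TFPI2) counted in genes from STEAP1. Of the 10 nearest measured genes, 5 on each side, 2 rose and 3 fell in P114 over CMT-U335, where 7.89% of all genes were called higher and 14.4% lower, and their median was -0.043. Against CMT-U229, 3 rose and 0 fell, with a median of 0.18, where 3.32% of genes were called higher and 3.98% lower. Besides STEAP2 the genes that rose were ABCB1, a drug efflux pump, in both pairs (0.99 ± 0.18 and 1.89 ± 0.12) and ABCB4, a phospholipid transporter, in the pair with CMT-U229 only (0.56 ± 0.097). ABCB4 fell against CMT-U335 (-0.95 ± 0.17, a call missed with the swaps averaged, adjusted p = 0.0590). ABCB4 also lost its call against CMT-U229 without replicate 1, 2 or 5, with adjusted p of up to 0.0700, and with the swaps averaged (adjusted p = 0.0881).

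The 3 nearest measured genes before STEAP1, at places -16 to -19 in the gene table, were not called with P114. SRI, a calcium-binding protein, had 0.37 ± 0.17 and 0.27 ± 0.10 over CMT-U335 and CMT-U229, ADAM22 -0.088 ± 0.070 and -0.051 ± 0.088, and the mitochondrial carrier SLC25A40 0.0018 ± 0.19 and -0.038 ± 0.36. On the far side of STEAP2, AKAP9, a scaffold of kinases, was not called. ANKIB1 fell against CMT-U335 (-0.57 ± 0.075) and had 0.066 ± 0.12 against CMT-U229, and RBM48 was not called. TFPI2, a protease inhibitor, fell by 2.45 ± 0.21 against CMT-U335 and had 0.35 ± 0.20 against CMT-U229. In CMT-U229 over CMT-U335, where 8.77% of genes were called higher and 8.58% lower, 0 of the 10 rose and 5 fell, with a median of -0.34. They were ABCB4, ABCB1, STEAP2, ANKIB1 and TFPI2. Of these ABCB1 (-0.59 ± 0.13) lost its call without replicate 2, 3 or 5, with adjusted p of up to 0.0803, and with the swaps averaged both it and ANKIB1 missed the threshold (adjusted p = 0.0700 and adjusted p = 0.0545).

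No measured neighbour of TMEFF2 on chromosome 37, of 10, rose in the pairs with P114. NABP1 lies at place -2, counted in genes from TMEFF2. The others are farther off, at places -37 to -24 on one side and 31 to 71 on the other. In P114 over CMT-U335 none of the 10 nearest measured genes was called by limma (1 at an unadjusted p under 0.05), and their means ran from -0.068 to 0.21. Of all genes, 7.89% were called higher and 14.4% lower in this pair. Against CMT-U229, 0 rose and 1 fell, where 3.32% of all genes were called higher and 3.98% lower. The gene that fell was NABP1, a protein that binds single-stranded DNA, at -0.57 ± 0.076 (adjusted p = 0.00582, and adjusted p = 0.0744 with the swaps averaged). NABP1 rose in CMT-U229 over CMT-U335 by 0.66 ± 0.091. There 1 of the 10 rose and 0 fell, where 8.77% of all genes were called higher and 8.58% lower. The chaperonin genes HSPD1 and HSPE1, which lie next to each other, had -0.042 ± 0.081 and 0.086 ± 0.083 in P114 over CMT-U335.

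**Figure D3:**
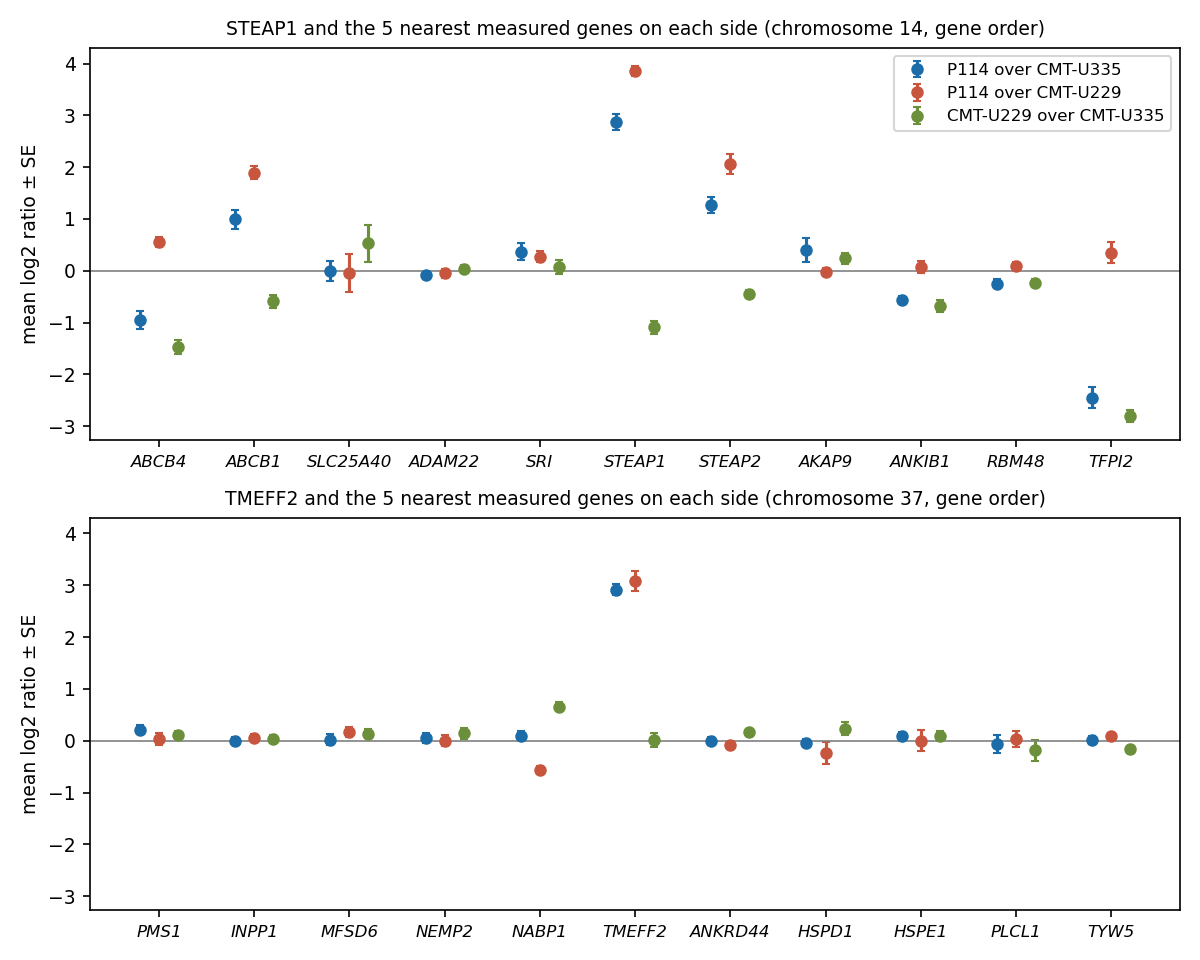
Mean log2 ratio ± SE (y axis, 5 arrays) of STEAP1 (upper panel) and TMEFF2 (lower panel) with the 5 nearest measured genes on each side in the order of the gene table (x axis), for the 3 pairs. STEAP2 and ABCB1 share the signs of STEAP1 in all 3 pairs, ABCB4 and TFPI2 do not, and TMEFF2 stands above neighbours that reach at most 0.21 in the pairs with P114.

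Across the 15 arrays the ratios most like those of each gene were found by the uncentred (cosine) correlation, among 323 genes with a mean log2 ratio of at least 1 in size in some pair. The arrays share lines and dyes, and genes chosen in this way tend to share the pair means of the member, so this is a description. For STEAP1 the closest were the lysosomal protease gene CTSC (0.980), the collagen-binding anthrax toxin receptor ANTXR2 (0.973), ARAP3, which regulates small GTPases (0.969), the laminin chain LAMB1 (0.960) and STEAP2 (0.959). All had larger means over CMT-U229 than over CMT-U335, as STEAP1 did: CTSC had 1.44 and 1.16, ANTXR2 1.25 and 0.90, and ARAP3 1.51 and 0.86. TMEFF2 was 11th in likeness to STEAP1 (0.953).

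For TMEFF2 the closest were FDFT1 (0.986), RARRES2, which encodes the secreted chemerin (0.984), MOCS2 (0.982), NDUFV2 (0.981) and the secreted hormone gene STC1 (0.977). These were about equally high in P114 over both lines: FDFT1 had means of 2.16 over CMT-U335 and 2.25 over CMT-U229, and RARRES2 had 1.11 and 1.12. Their means of CMT-U229 over CMT-U335 lay between -0.11 and -0.079. STEAP1 was 13th (0.953) and STEAP2 19th (0.929). The lists of 5 for the 2 genes had no gene in common.

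Other tumour surface antigens gave a mixed picture. In P114 over CMT-U335, 6 of 23 measured rose and 2 fell, where 7.89% of all genes were called higher and 14.4% lower. Their median was 0.023, against -0.023 over all genes. Those that rose were EPCAM, an epithelial adhesion molecule (3.55 ± 0.15, limma adjusted p = 2.47e-05), the tetraspanins TSPAN8 (0.88 ± 0.19) and CD151 (0.37 ± 0.080), the integrin chain ITGAV (0.83 ± 0.10), CD99 (0.55 ± 0.083) and the mucin MUC16 (0.37 ± 0.10). CD151 lost its call without replicate 3 or 4 (adjusted p up to 0.0558) and MUC16 without replicate 2, 3, 4 or 5 (up to 0.116). CD109 fell by 0.89 ± 0.096 on the log2 scale and the receptor FGFR2 by 0.54 ± 0.071.

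In P114 over CMT-U229, 3 of 23 rose and 2 fell, where 3.32% of all genes were called higher and 3.98% lower. Their median was 0.018, against -0.011 over all genes. EPCAM rose by 1.80 ± 0.099 and CD99 by 0.53 ± 0.069. CD59, which shields cells from complement, fell by 1.34 ± 0.20 on the log2 scale. Of these the calls of CD99 and CD59 were missed with the swaps averaged (adjusted p = 0.0571 and adjusted p = 0.103). MUC16 (0.38 ± 0.084) and CD47 (-0.47 ± 0.10), a signal against phagocytosis, passed as well but lost the call without replicate 1, 2, 3 or 5, with adjusted p of up to 0.148 and 0.118. The receptors ERBB2 and EGFR were not called in any pair, with 0.017 ± 0.097 and 0.25 ± 0.097 in P114 over CMT-U335.

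In CMT-U229 over CMT-U335, 9 of 23 rose and 2 fell, where 8.77% of all genes were called higher and 8.58% lower. Their median was 0.10, against -0.0050 over all genes. TSPAN8 rose by 2.73 ± 0.18, EPCAM by 1.78 ± 0.14 and CD59 by 1.45 ± 0.15, whereas CD109 (-0.83 ± 0.091) and FGFR2 (-0.66 ± 0.087) fell. EPCAM and STEAP1 thus had opposite signs in this pair, and both were high in P114.

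**Figure D4:**
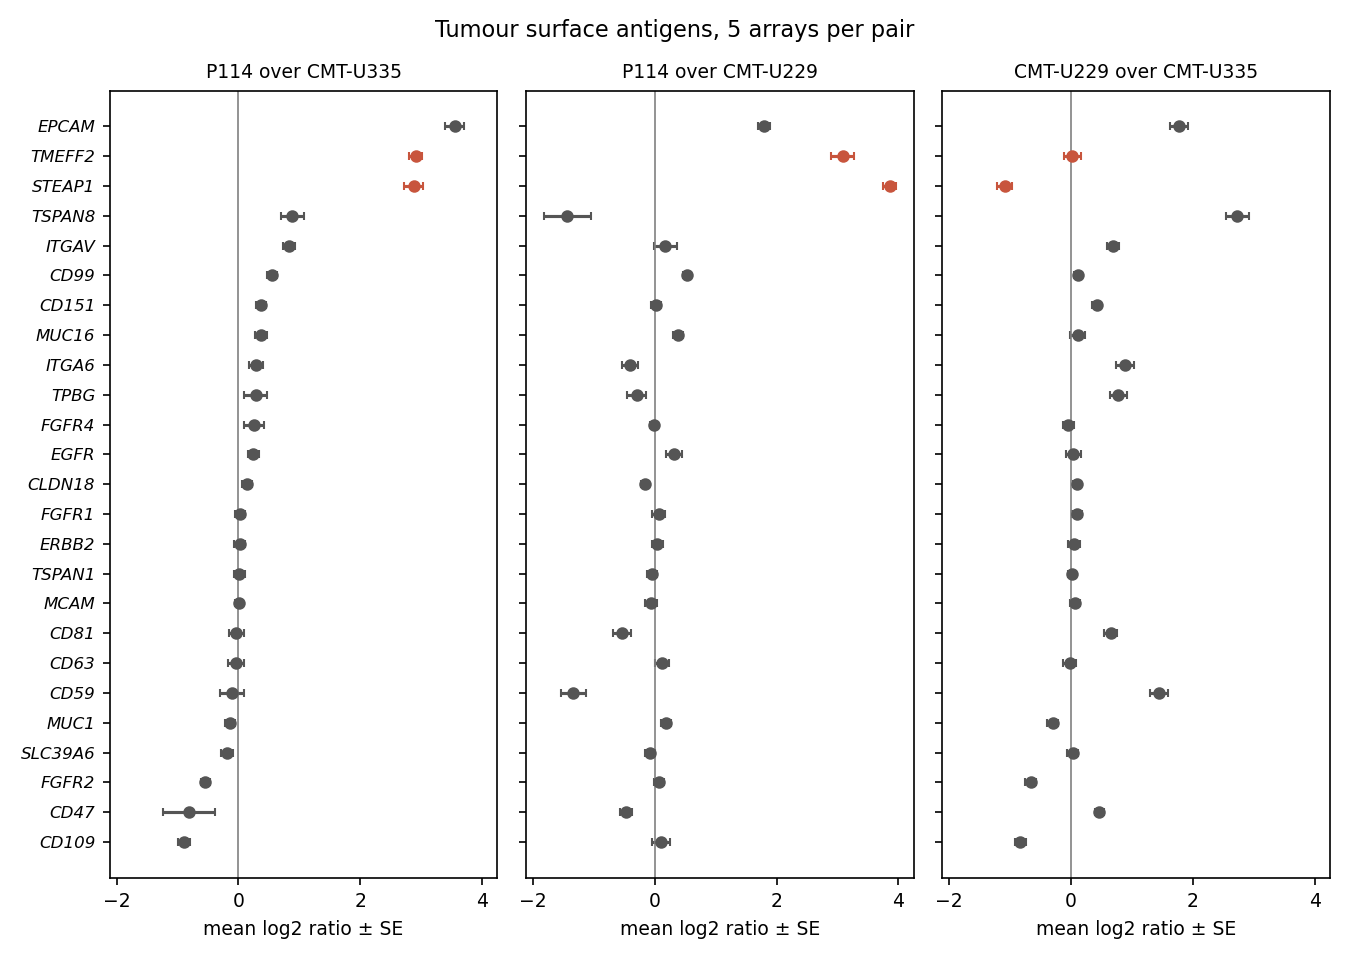
Mean log2 ratio ± SE (x axis, 5 arrays) of 25 tumour surface antigens (rows, ordered by P114 over CMT-U335) in the 3 pairs, with STEAP1 and TMEFF2 in red. EPCAM at 3.55 and 1.80 is the only other antigen above 1 in either pair with P114, and in CMT-U229 over CMT-U335 the largest values belong to TSPAN8 and EPCAM.

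Among metal reductases and other electron-transfer proteins, the number called and the genes called differed by pair. Beside STEAP2, 6 reductases and cytochromes were measured. NQO1, a quinone reductase, rose in P114 over CMT-U335 (1.58 ± 0.16), so that 2 of 7 rose and 0 fell, where 7.89% of all genes were called higher. CYBRD1, a ferric reductase, fell in P114 over CMT-U229 (-1.84 ± 0.12), so that 1 rose and 1 fell, where 3.32% of all genes were called higher and 3.98% lower. CYBRD1 rose by 1.91 ± 0.10 and NQO1 by 1.49 ± 0.22 in CMT-U229 over CMT-U335, where STEAP2 fell, as did CYB5R1 (-0.29 ± 0.066, a call lost without replicate 2, 3, 4 or 5, adjusted p up to 0.0921). In that pair 2 of 7 rose and 2 fell, where 8.77% of all genes were called higher and 8.58% lower. CYB561, CYB5B and the cytochrome P450 reductase POR were not called in any pair.

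Of 9 genes for iron and copper transport and storage, 1 rose and 1 fell in P114 over CMT-U335, close to the 7.89% of all genes called higher and 14.4% called lower. They were the metallothionein MT2A at 3.22 ± 0.091 and the RNA- and iron-binding protein gene PCBP2 at -0.34 ± 0.074. The call of PCBP2 was lost without replicate 2 (adjusted p = 0.0504). Against CMT-U229, 0 rose and 1 fell, where 3.32% of all genes were called higher and 3.98% lower. The gene that fell was the copper-carrying ceruloplasmin CP (-0.48 ± 0.079). Its call was lost without replicate 1 (adjusted p = 0.0512) and with the swaps averaged (adjusted p = 0.103). In CMT-U229 over CMT-U335 MT2A (2.53 ± 0.22) and CP (0.52 ± 0.086, missed with the swaps averaged, adjusted p = 0.0523) rose and the copper chaperone CCS fell (-0.54 ± 0.15, lost without replicate 2, 3, 4 or 5, adjusted p up to 0.140). So 2 of 9 rose and 1 fell, where 8.77% of all genes were called higher and 8.58% lower. The ferritin light chain FTL and the iron exporter SLC40A1 had 0.14 and 0.15 in P114 over CMT-U335 and were not called.

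Of 11 genes related to TMEFF2 by domain, reported partner or shedding, 2 rose and 0 fell in P114 over CMT-U335, where 7.89% of all genes were called higher and 14.4% lower. They were the follistatin-domain matrix glycoprotein SPARC (0.56 ± 0.17) and the activin receptor type I gene ACVR1 (0.26 ± 0.073). Both lost the call when an array was left out, SPARC without replicate 2, 3, 4 or 5 (adjusted p up to 0.125) and ACVR1 without any one of the 5 (up to 0.119). Over CMT-U229, SPARC (1.33 ± 0.21) and the sheddase gene ADAM10 (0.75 ± 0.091) rose and 0 fell. Both calls were missed with the swaps averaged (adjusted p = 0.114 and adjusted p = 0.0568). In this pair 3.32% of all genes were called higher and 3.98% lower. Between CMT-U229 and CMT-U335 ACVR1 rose (0.80 ± 0.11) and ADAM10 fell (-0.97 ± 0.11), where 8.77% of all genes were called higher and 8.58% lower. The activin antagonist FST and the receptor gene ERBB4 were not called in any pair.

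Genes known as androgen-responsive or prostate luminal were measured because the human antigens are linked to that tissue. Of 8 measured, STEAP2, the TGF-beta-dampening gene PMEPA1 (0.90 ± 0.14) and the vesicle protein gene TPD52 (0.73 ± 0.076) rose in P114 over CMT-U335. The fatty acid racemase AMACR (-1.52 ± 0.19), the immunophilin FKBP5 (-1.05 ± 0.13) and the polyamine enzyme ODC1 (-0.54 ± 0.13, lost without replicate 5, adjusted p = 0.0783) fell. In this pair 7.89% of all genes were called higher and 14.4% lower. In P114 over CMT-U229 STEAP2 alone rose, and 0 fell, where 3.32% of all genes were called higher and 3.98% lower. In CMT-U229 over CMT-U335 PMEPA1 (0.62 ± 0.091) and TPD52 (0.79 ± 0.11) rose, and STEAP2, AMACR (-1.32 ± 0.19) and FKBP5 (-0.97 ± 0.14) fell. Of all genes, 8.77% were called higher and 8.58% lower there.

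Markers of cell types moved with the same pairs, and their part in the ratios of STEAP1 and TMEFF2 was not tested. In P114 over CMT-U335 7.89% of all genes were called higher and 14.4% lower, in P114 over CMT-U229 3.32% and 3.98%, and in CMT-U229 over CMT-U335 8.77% and 8.58%. Of 7 epithelial markers 5 rose and 1 fell in P114 over CMT-U335, with means from -0.35 to 3.55, and KRT18 and EPCAM rose in P114 over CMT-U229, with means from -0.31 to 2.41. In that second pair the keratin gene KRT8 had -0.31 ± 0.19 and was not called. Of 12 mesenchymal and bone markers 3 rose and 3 fell over CMT-U335, between -1.39 and 4.12, and 5 rose and 0 fell over CMT-U229, between -0.17 and 2.06. The collagen gene COL1A2 had opposite signs in the pairs with P114, at -1.39 ± 0.14 over CMT-U335 and 2.06 ± 0.30 over CMT-U229, unlike STEAP1 and TMEFF2. COL3A1 (0.69 and 0.77) and SPARC (0.56 and 1.33) rose in both of these pairs, as the 2 members were high in both. The SPARC call over CMT-U335 was lost without replicate 2, 3, 4 or 5. SPP1 was above 0 in both (4.12 and 2.03) and was not called over CMT-U229. Of 8 myoepithelial markers 2 rose and 3 fell in each pair with P114, between -2.27 and 1.58 over CMT-U335 and between -2.03 and 2.47 over CMT-U229. LAMA3 (1.58 and 2.47) and CAV1 (0.41 and 1.22) rose in both, and MYL9 (-1.05 and -0.71) and TPM2 (-0.90 and -0.75) fell in both. For CMT-U229 over CMT-U335, 3 epithelial markers rose and 0 fell, 1 mesenchymal and bone marker rose and 5 fell, and 1 myoepithelial marker rose and 3 fell. LAMA3 (-1.20) and CAV1 (-0.72) were among those 3, so they had the signs of STEAP1 in all 3 pairs. Other myoepithelial markers did not. MYLK rose in CMT-U229 over CMT-U335 (2.22 ± 0.073) and fell in P114 over CMT-U229 (-2.03 ± 0.10), opposite to STEAP1 in both. CALD1 fell in P114 over CMT-U335 (-2.27 ± 0.093), where STEAP1 was high. Some of these calls were lost in other versions of the fit. Of the 5 mesenchymal genes that rose over CMT-U229, DCN, COL1A2, COL3A1 and SPARC missed the threshold with the swaps averaged (adjusted p = 0.213, 0.0942, 0.0548 and 0.114), and DCN also without replicate 2, 3, 4 or 5 (up to 0.139), while S100A4 passed. Of the 5 myoepithelial genes called there, MYL9, TPM2 and LAMA3 missed it with the swaps averaged (adjusted p = 0.144, 0.0881 and 0.0785), and MYL9 also without replicate 1, 3 or 5 (up to 0.122). Over CMT-U335, COL3A1 and DSP missed it with the swaps averaged (adjusted p = 0.0521 and adjusted p = 0.0696), and DSP, TJP1 and CAV1 were lost without 1 array (adjusted p up to 0.0895, 0.0722 and 0.0629). Between CMT-U229 and CMT-U335, CALD1 was lost without replicate 1, 4 or 5 (up to 0.122). Of 10 leukocyte and endothelial markers CD14 alone was called, at 0.36 ± 0.10 and 0.50 ± 0.068 in P114 over CMT-U335 and over CMT-U229, the first of them lost without replicate 2, 3, 4 or 5 (adjusted p up to 0.130) and both missed with the swaps averaged (adjusted p = 0.0959 and adjusted p = 0.0611).

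Across all genes limma called 22.3% between P114 and CMT-U335, 7.30% between P114 and CMT-U229 and 17.3% between CMT-U229 and CMT-U335. These are 1169, 383 and 910 of 5246 genes. For P114 over CMT-U229 the count fell to 202, 224, 235 and 223 without replicate 1, 2, 3 and 5 in turn, and to 79 with the apparent dye swaps averaged. For CMT-U229 over CMT-U335 it fell to 586 without replicate 2, to 571 without replicate 5 and to 410 with the swaps averaged. Of the called genes compared with STEAP1 and TMEFF2 here (list members, neighbours and most similar genes), 9 of 48, 19 of 33 and 11 of 43 missed the threshold in that version, in the same order of pairs.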

How the data were processed

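RNA of 3 lines was amplified by T7 transcription, coupled to Cy3 or Cy5 and hybridised in pairs, per the labels' protocols. The deposited values, read as log2 ratios, were normalized by the authors before deposit according to the design text, with the method, log base and numerator not given in the sources used here. Base 2 was read from the largest absolute value, 12.43, and Cy5 over Cy3 from the labels. Deposited columns of a pair correlated at 0.20 to 0.50 between arrays of the same dye order and at -0.35 to 0.00015 between opposite orders. Array medians lay between -0.0067 and 0.013. The table had 22176 probes, 2 missing values and no column of another series, and 0 pairs of arrays were identical. Symbols came from the platform annotation and were updated through the RefSeq gene table of UU_Cfam_GSD_1.0 (7340 probes; 354 kept theirs; 14482 had none). No intensities were used, so the number of arrays limits the precision.

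Arrays were turned by their dyes, probes of a gene averaged, and each pair fitted by itself with limma 3.58.1 in R 4.3.3 (mean of 5 arrays against 0, two-sided, Benjamini-Hochberg over 5246 genes, at least 3 values, threshold 0.05). limma took the place of SAM, which the series design names. "Rose" and "fell" are used of genes past this threshold. The fit was also run on simulated data with independent noise on each array, which does not cover arrays that repeat the same RNA. Alternatives were array medians at 0, scale normalization, a dye term, fits over 15 arrays, a closed loop, the replicate number as a block, apparent dye swaps averaged, other thresholds and filters, single probes and each array left out. The apparent swaps were taken from an earlier examination of these data. The members and lists were chosen with earlier results of these data known. Named genes were the members with every array, the STEAP family, up to 3 called genes per list and direction, the 5 most similar genes, the 5 nearest measured genes on each side, those next in rank, and genes with a mean log2 ratio of at least 2 for P114 over both lines. A few genes beyond this rule were chosen after their values were seen.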

Additional observations from a re-analysis of the deposited data

How the results depend on the processing

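Over 30 recomputed means of STEAP1 and TMEFF2 (array medians at 0, scale normalization, dye term, closed loop, swaps averaged), 29 moved by less than the SD over arrays and no STEAP1 mean, and no TMEFF2 mean with P114, changed sign. The exception was STEAP1 in P114 over CMT-U229, at 4.19 with scale normalization. With 1 array left out, STEAP1 ranged from 2.73 to 2.98 in P114 over CMT-U335, from 3.80 to 3.95 for P114 over CMT-U229 and, for CMT-U229 over CMT-U335, from -1.20 to -0.98. TMEFF2 ranged from 2.86 to 3.02, from 2.90 to 3.21 and from -0.067 to 0.18 in the same order. Counts of called genes with 1 array left out ranged from 835 to 1031, from 202 to 408 and from 571 to 863. With the loop forced to close they were 1757, 1056 and 1445, and at an adjusted p under 0.01 they were 642, 159 and 470. For P114 over CMT-U229 the count was 650 in a fit over 15 arrays and 582 by single probes. With the apparent dye swaps averaged it was 79 there and 410 in CMT-U229 over CMT-U335. Why the counts differed between these versions was not tested.

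Deviations of same-numbered arrays from different pairs correlated at -0.24 to 0.23, and 1 of 15 arrays was closest to its own number. Closeness was read from the highest correlation. CMT-U229 RNA shared between pairs would give negative correlations, because this line is numerator in 1 pair and denominator in another. The count therefore cannot settle whether same-numbered arrays were related. With the replicate number as a block 1365, 651 and 1045 genes were called, the STEAP1 means (2.88, 3.86 and -1.09) cannot change in this balanced fit, and its dye shift had adjusted p = 0.0767, against 0.0863 for TMEFF2. Over its alternatives the adjusted p of the dye shift ran from 0.0767 to 0.495 for STEAP1 and from 0.0863 to 0.357 for TMEFF2. STEAP2 missed the threshold with the block in CMT-U229 over CMT-U335 (adjusted p = 0.0808), as did 3, 1 and 2 of the 48, 33 and 43 called genes compared with the members, in the order of pairs above. Each member has 1 probe, so a version by single probes gave no other value.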
